A study of Mus musculus with 12 samples.

Results

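The 9 genes described here encode the ligands and receptors of the vascular endothelial growth factor (VEGF) and angiopoietin systems that act on blood vessels, out of 14851 genes in each deposited table. They were taken by name, and all 9 were found, namely Vegfa, Vegfb and Pgf (VEGF ligands), Kdr and Flt1 (VEGF receptors), Angpt1 and Angpt2 (angiopoietins), and Tek and Tie1 (Tie receptors). They were read in 562 cells, a vascular tumor cell line that immortalized spontaneously from tumors of Tsc1-iΔEC mice. In those mice tamoxifen and Scl-Cre remove Tsc1 from endothelial cells, so all 4 groups carry that deletion, the control included. RNA was sequenced from 3 libraries each of control cells (called wildtype in the labels) and of cells with a knockout (KO) of Fip200, of Atg5 or of Atg7, 12 libraries in all. The cells were labelled as lymphatic endothelial cells of strain C57BL/6 and were grown with heparin and endothelial cell growth supplement. The KO cells were made by lentiviral CRISPR-Cas9 with puromycin selection and the control cells received an sgRNA against EGFP, per the study's methods. Fip200 and the Atg5 and Atg7 proteins act at different steps of autophagosome formation. The study describes a pair of Fip200 KO clones, and the labels do not say which clone a library came from. The study calls the 3 mRNA samples of each KO independent and describes its experiments as done in biological triplicate, without saying for these libraries whether separate cultures were used, and the p-values measure the spread between them.

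In endothelial cells VEGF-A binds VEGFR2 (Kdr), the main signalling receptor for growth, migration and permeability, and VEGFR1 (Flt1), which binds VEGF-A more tightly but signals weakly and in its soluble form withholds the ligand from Kdr. VEGF-B and PlGF (Pgf) bind Flt1 and not Kdr. Angiopoietin-1 (Angpt1) activates the receptor Tie2 (Tek) and stabilises vessels. Angiopoietin-2 (Angpt2) is stored and released by endothelial cells and antagonises or weakly activates Tek depending on context, and Tie1 is an orphan receptor that pairs with Tek.

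Between 17266667 and 23629388 reads per library were behind the values, which are RPKM (reads scaled to gene length and to the library total), so levels can be compared between genes. Of 12 endothelial markers, 10 reached an RPKM of 1 in at least 1 library of every group, with a summed RPKM between 1230 and 3579. Of 6 lymphatic endothelial markers, 5 were in the tables, and Lyve1 was read at 60.6 to 393 RPKM while Prox1, the defining transcription factor of lymphatic endothelium, stayed between 0.0366 and 5.79 RPKM. Control replicate 2 stood apart. It had the lowest summed RPKM of endothelial markers (1230). Of 12 mural and fibroblast markers, 11 had values, and their sum was highest in control replicate 2 (214, against 2.64 to 44.0 in the other libraries). Most of that sum came from Col3a1 (143 RPKM) and Dcn (56.9 RPKM), while Rgs5 was at 0 in all control libraries. Sox17 was the endothelial marker at 0 in every Fip200 KO library, but it was near 0 in every group. It was read at 0.128, 0 and 0.0112 RPKM in control and at no more than 0.128 in any library. Of 6 blood cell markers, 4 had values, and of these Cd68 alone reached an RPKM of 1 (6.95 to 263). Of 4 epithelial markers, 2 had values, and these summed to 0.392 to 10.6 RPKM. The markers without values were not measured. In bulk RNA, fewer cells of a type and less RNA per cell cannot be told apart. Library names carried the prefix FY for control replicate 1 and the Fip200 KO libraries, JG for control replicates 2 and 3 and Atg5 KO replicates 1 and 2, and Yang for Atg5 KO replicate 3 and the Atg7 KO libraries. What the prefixes stand for is not stated, and no control library carried the prefix Yang. RNA of the targeted genes was read at 6.43 to 8.27 RPKM in control against 2.06 to 6.84 in Fip200 KO for Rb1cc1, which encodes FIP200, at 10.6 to 14.2 against 8.53 to 15.5 for Atg5 in Atg5 KO, and at 18.4 to 25.0 against 2.64 to 8.34 for Atg7 in Atg7 KO. The groups overlapped for Rb1cc1 and Atg5 and did not for Atg7.

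The promoters of the members whose RNA moved most are shown first, with the cAMP response element (TGACGTCA) and the hypoxia response core (ACGTG or GCGTG), searched on both strands, in capitals. They span 250 bases before to 50 after the start site, 5′ to 3′ on the strand of the gene, from RefSeq on GRCm38.p6, and 7 of the 9 members were in that table. The Flt1 promoter lies at chr5:147725962-147726261, the first listed Vegfa promoter at chr17:46032328-46032627 and the Kdr promoter at chr5:75978406-75978705, all on the minus strand.
Flt1: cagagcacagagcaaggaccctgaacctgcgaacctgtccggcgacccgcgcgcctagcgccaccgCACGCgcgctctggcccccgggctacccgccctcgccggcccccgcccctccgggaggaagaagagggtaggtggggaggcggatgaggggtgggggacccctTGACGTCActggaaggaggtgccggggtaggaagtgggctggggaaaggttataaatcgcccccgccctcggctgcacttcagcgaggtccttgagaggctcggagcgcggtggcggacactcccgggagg
Vegfa: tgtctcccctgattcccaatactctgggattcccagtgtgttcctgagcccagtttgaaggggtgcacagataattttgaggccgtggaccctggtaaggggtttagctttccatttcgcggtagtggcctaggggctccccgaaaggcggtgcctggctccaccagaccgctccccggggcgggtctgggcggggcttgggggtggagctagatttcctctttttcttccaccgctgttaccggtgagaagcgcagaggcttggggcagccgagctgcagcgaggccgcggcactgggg
Kdr: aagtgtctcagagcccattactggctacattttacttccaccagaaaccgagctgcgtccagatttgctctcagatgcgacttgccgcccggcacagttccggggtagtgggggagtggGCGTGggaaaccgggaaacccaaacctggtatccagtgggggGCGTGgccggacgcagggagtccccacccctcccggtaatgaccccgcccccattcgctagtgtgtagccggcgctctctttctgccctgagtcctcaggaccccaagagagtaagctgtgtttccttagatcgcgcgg
Of the 7 members with a listed promoter, Flt1 alone held TGACGTCA, whose first base lay 81 bases before the start site, and 1.79% of 32851 promoters of this length held it. The hypoxia response core was in the promoters of Flt1, Kdr and Vegfb, in the first of the 2 listed for Pgf and in the second of the 2 listed for Vegfa, but not in the first, printed above, against 43.8% of all promoters. These matches describe the letters in this window, and binding at them was not measured.

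In control cells the members ran from a gene with few reads to some of the most abundant RNAs. Angpt2 had the highest RPKM of the members (381 ± 164, SD, n = 3), above 99.2% of the genes in the tables, followed by Tie1 (157 ± 62.6) and Pgf (64.0 ± 15.4). Vegfb (39.5 ± 2.15), Kdr (38.4 ± 25.3), Vegfa (26.6 ± 9.32), Flt1 (24.5 ± 9.04) and Tek (17.6 ± 7.07) came next, and within this run each differed from its neighbour by less than the larger of their SDs. Angpt1, the agonist of Tek, was last at 0.574 ± 0.491 RPKM, from between 3 and 107 reads, above 21.3% of the genes. By mean RPKM, Angpt2 and Tie1 stayed highest and Angpt1 last in each KO group, and Angpt2 and Tie1 overlapped in Atg5 KO. Pgf stayed next to them by mean, but it overlapped with Kdr in Atg5 KO, and in Atg7 KO its mean rested on replicate 2 and its median library (44.4 RPKM) was below that of Kdr (52.1). Flt1 and Vegfa had the lowest means after Angpt1 in all 3 KO groups, although in Atg7 KO the mean of Tek also rested on replicate 2, and the median library was at 9.35 RPKM for Tek and at 10.5 for Vegfa.

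**Figure D1:**
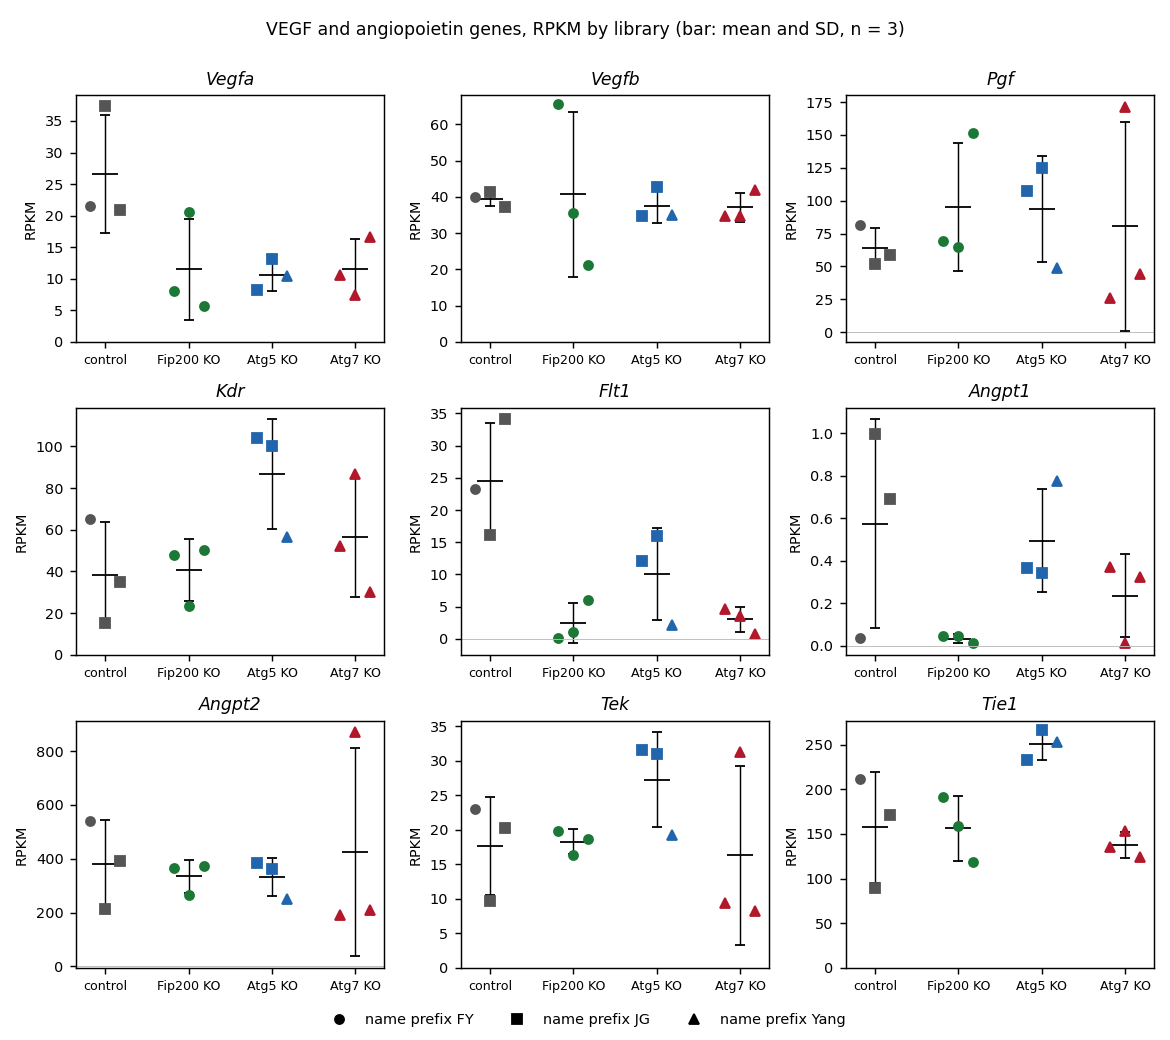
RPKM of the 9 members by library in the 4 groups, each panel with its own linear axis. Points are libraries, shaped by the prefix of the library name, and bars give the mean and SD (n = 3). Flt1 and Vegfa lay below all 3 control libraries in all 9 KO libraries, and the other members overlapped with control apart from Tie1 in Atg5 KO cells.

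Among the VEGF receptors, Flt1 RNA was called lower in Fip200 KO and Atg7 KO, and Kdr RNA was called higher in Atg5 KO with overlapping groups. Flt1 was read at 23.3, 16.1 and 34.1 RPKM in control. It had 0.145, 1.12 and 5.99 RPKM in Fip200 KO, from 18, 141 and 826 reads. Atg5 KO had 12.1, 15.9 and 2.21 RPKM, and Atg7 KO had 4.66, 3.56 and 0.804. All 9 KO libraries lay below the lowest control, and Atg5 KO replicate 2 (15.9) came close to it (16.1). Folds below are on the scale of log2 of RPKM plus 0.5, tested by limma with Benjamini-Hochberg adjustment over all genes tested, and to be called a gene needed an adjusted p no higher than 0.1 with a log2 fold change of 1 or more in either direction. The log2 fold change of Flt1 was −3.66 in Fip200 KO (standard error 0.779, limma adjusted p = 0.0994) and −2.99 in Atg7 KO (standard error 0.530, limma adjusted p = 0.0196), and both were called. In Atg5 KO the log2 fold change was −1.54 (standard error 0.666, limma adjusted p = 0.122), with a 95% interval from −3.12 to 0.04, and Flt1 was not called. Without Atg5 KO replicate 3 that difference was −0.73 (limma adjusted p = 0.147), and without replicate 2 it was −2.03 (limma adjusted p = 0.0845) and Flt1 was called.

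The Flt1 calls differed in how far they held. In Fip200 KO the adjusted p was close to the threshold, and the call was lost when any 1 of the control libraries, Fip200 KO replicate 1 or Fip200 KO replicate 2 was left out (limma adjusted p from 0.119 to 0.491), while the log2 fold change stayed between −3.92 and −2.88. Without Fip200 KO replicate 3 the call was kept (−4.55, limma adjusted p = 0.0140). It was also lost with a pseudocount of 0.1, with a stricter filter or none, and with voom on recovered reads (limma adjusted p up to 0.145). In Atg7 KO the call held without any 1 library (limma adjusted p from 0.0204 to 0.0903). In a fit that included the name prefix, the Atg7 KO difference shrank to −0.58 (limma adjusted p = 0.927) and the Fip200 KO difference stayed at −3.65 (limma adjusted p = 0.453). Within the prefix Yang, Atg5 KO replicate 3, at 2.21 RPKM, was within the range of the Atg7 KO libraries, so the difference of Atg7 KO from control and that prefix cannot be told apart. Within the prefix JG, Atg5 KO replicates 1 and 2 were 0.74 lower on the log2 scale than control replicates 2 and 3.

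Kdr was read at 65.3, 15.2 and 34.7 RPKM in control and at 48.0, 23.4 and 50.4 in Fip200 KO. Atg5 KO had 104, 100.2 and 56.3 RPKM, while 52.1, 86.8 and 29.9 were measured in Atg7 KO. The control libraries spread widely, and every KO group overlapped with them. In Atg5 KO Kdr was called higher by a log2 fold change of 1.35 (standard error 0.512, limma adjusted p = 0.0878). That call was lost without control replicate 2 (0.81, limma adjusted p = 0.163), control replicate 3, Atg5 KO replicate 1 or Atg5 KO replicate 2 (limma adjusted p up to 0.210). It was kept in the fit that included the name prefix (2.13, limma adjusted p = 0.0798), and within the prefix JG both Atg5 KO libraries lay above both control libraries. Kdr differed by 0.23 in Fip200 KO (standard error 0.540) and by 0.65 in Atg7 KO (standard error 0.566), and neither was called by limma (adjusted p = 0.855 and 0.454). With the prefix in the fit the Atg7 KO difference became 2.0 (limma adjusted p = 0.490), and without control replicate 2 it was 0.11 (limma adjusted p = 0.905).

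**Figure D2:**
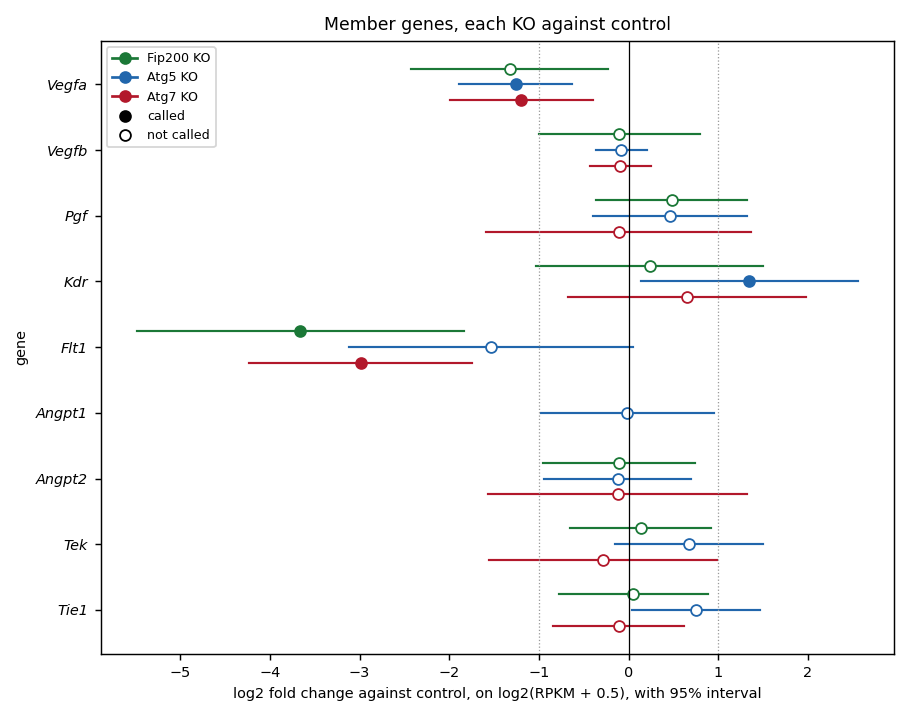
Log2 fold change of each member in each KO against control, on the scale of log2 of RPKM plus 0.5, with 95% intervals from limma. Filled points were called and dotted lines mark a log2 fold change of 1 in size. The called points are Flt1 in Fip200 KO and Atg7 KO, Vegfa in Atg5 KO and Atg7 KO, and Kdr in Atg5 KO.

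The ratio of the 2 receptors within a library does not depend on the total of that library. Flt1 RPKM over Kdr RPKM was 0.357, 1.06 and 0.983 in control and 0.00301, 0.0477 and 0.119 in Fip200 KO. It was 0.116, 0.159 and 0.0392 in Atg5 KO, while Atg7 KO had 0.0893, 0.0410 and 0.0268. The highest KO ratio was below the lowest control ratio. Flt1 alone already lay below control in every KO library, so this separation adds little to it. How many gene pairs separate in this way was not counted. Of the other ratios taken, Vegfa over Kdr was lower and Pgf over Vegfa higher without overlap in Atg5 KO, and both overlapped with control in Fip200 KO and Atg7 KO. Tek over Tie1 overlapped with control in each KO. The mean log2 ratio minus that of control was −4.80 for Fip200 KO, −3.0 for Atg5 KO and −3.96 for Atg7 KO. An exact permutation of 3 against 3 libraries cannot give a p below 0.1.

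**Figure D3:**
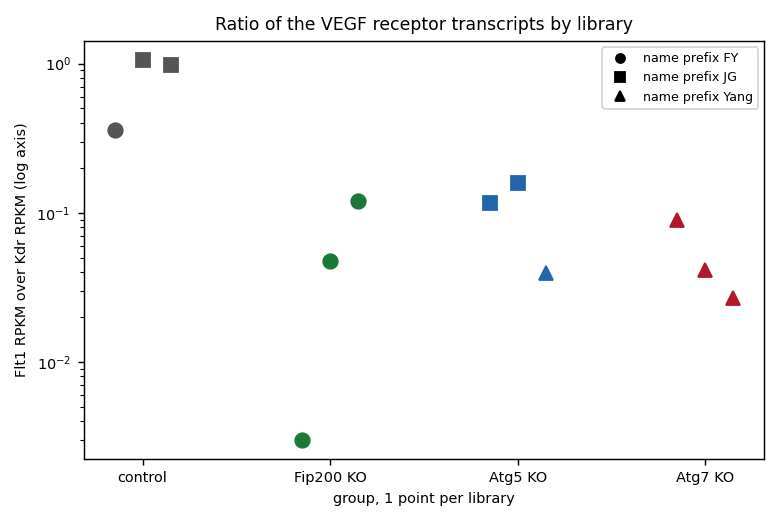
Flt1 RPKM over Kdr RPKM in each library, on a log axis, with points shaped by the prefix of the library name. The 3 control libraries lie between 0.357 and 1.06 and the 9 KO libraries between 0.00301 and 0.159.

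Among the VEGF ligands, Vegfa was called lower in both Atg5 KO and Atg7 KO, and Vegfb and Pgf were not called. Vegfa, the main ligand of Kdr, was read at 21.6, 37.4 and 20.9 RPKM in control. It was at 8.13, 20.6 and 5.74 RPKM in Fip200 KO, while Atg5 KO had 8.15, 13.2 and 10.5 and Atg7 KO had 10.5, 7.35 and 16.7. No KO library reached the control range, and Fip200 KO replicate 2 came close to it. Vegfa was called lower, with a log2 fold change of −1.26 in Atg5 KO (standard error 0.268, limma adjusted p = 0.0169) and of −1.2 in Atg7 KO (standard error 0.341, limma adjusted p = 0.0591). In Fip200 KO the log2 fold change was −1.33 (standard error 0.469, limma adjusted p = 0.238) and Vegfa was not called. In Atg5 KO, leaving out control replicate 2, which had the highest Vegfa, took the log2 fold change to −0.99 (limma adjusted p = 0.0267), just short of the fold threshold. In Atg7 KO the call was lost without control replicate 2 (−0.93, limma adjusted p = 0.158), control replicate 3, Atg7 KO replicate 1 or Atg7 KO replicate 2, and in the fit with the replicate block. In a fit that included the name prefix neither call was made (−1.39, limma adjusted p = 0.217 for Atg5 KO, and −1.33, limma adjusted p = 0.675 for Atg7 KO).

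Vegfb, a ligand of Flt1, was not called in any KO. It was read at 39.9, 41.5 and 37.2 RPKM in control and at 65.7, 35.4 and 21.1 in Fip200 KO, and more evenly in Atg5 KO (34.6, 42.8 and 35.1) and Atg7 KO (34.8, 34.9 and 41.8). Its log2 fold change was between −0.11 and −0.08 in the 3 comparisons. The 95% interval was from −0.37 to 0.20 in Atg5 KO and from −0.43 to 0.24 in Atg7 KO, and wider in Fip200 KO, from −1.0 to 0.79. Pgf, the other ligand of Flt1, was read at 81.3, 51.8 and 58.9 RPKM in control and at 69.3, 64.4 and 151 in Fip200 KO. Atg5 KO had 107, 125 and 48.4 RPKM, and Atg7 KO had 25.6, 172 and 44.4. A single library was far above the others in Fip200 KO (replicate 3) and in Atg7 KO (replicate 2), and Pgf was not called by limma (adjusted p from 0.360 to 0.919).

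Of the angiopoietins, Angpt2 was abundant in every library and Angpt1 was read at under 1 RPKM in each. Angpt2 was read at 539, 212 and 392 RPKM in control and at 364, 264 and 375 in Fip200 KO. Atg5 KO had 385, 362 and 251 RPKM, while 191, 869.8 and 209.9 were measured in Atg7 KO. Each KO group overlapped with control, and the log2 fold changes were between −0.12 and −0.11 (limma adjusted p from 0.811 to 0.909). Atg7 KO replicate 2 had the highest Angpt2, Pgf and endothelial marker sum of all 12 libraries. Angpt2 lies within Mcph1, on the opposite strand, with no shared exon bases in GENCODE M21. Angpt1 had 3, 107 and 62 reads in control and 4, 4 and 1 in Fip200 KO. Atg5 KO had 32, 32 and 76 reads of it, and Atg7 KO had 29, 1 and 30. Control replicate 1, which shares its name prefix with Fip200 KO, was as low as the Fip200 KO libraries. Of the comparisons with control, Angpt1 passed the filter on low values in that of Atg5 KO, where its log2 fold change was −0.01 (standard error 0.408, limma adjusted p = 0.985). In the fit of all 12 libraries it was 0.87 higher on the log2 scale in Atg5 KO than in Fip200 KO (95% interval from 0.06 to 1.68, limma adjusted p = 0.630), without overlap, and was not called. Its exons overlap Gm17473 on the opposite strand by 737 bases, and Gm17473 was not in the tables.

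Neither Tie receptor was called with all libraries in the fit. Tie1 was read at 212, 89.2 and 171 RPKM in control and at 191, 159 and 119 in Fip200 KO. Atg5 KO had 233, 267 and 253 RPKM, while 136, 153 and 125 were measured in Atg7 KO. The Atg5 KO libraries all lay above the control libraries, by a log2 fold change of 0.76 (standard error 0.301, limma adjusted p = 0.0986), which was short of the fold threshold. Without control replicate 1 Tie1 was called in Atg5 KO (1.02, limma adjusted p = 0.0396), and without control replicate 2 the difference was 0.39 (limma adjusted p = 0.0819). Tek was read at 23.0, 9.60 and 20.2 RPKM in control and at 19.8, 16.3 and 18.6 in Fip200 KO. Atg5 KO had 31.5, 31.0 and 19.2 RPKM, while 9.35, 31.2 and 8.21 were measured in Atg7 KO. Tek overlapped with control in each KO, with log2 fold changes of 0.14, 0.67 and −0.28 (limma adjusted p = 0.866, 0.183 and 0.741). In Atg5 KO the Tek difference ran from 0.30, without control replicate 2, to 1.13, with the name prefix in the fit, and was not called. Angpt2 RPKM over Tek RPKM was 23.5, 22.1 and 19.4 in control and 12.2, 11.7 and 13.0 in Atg5 KO, and the groups did not overlap. It overlapped with control in Fip200 KO and Atg7 KO.

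Every member had its lowest or highest control value in control replicate 2. It was the lowest control for Pgf, Kdr, Flt1, Angpt2, Tek and Tie1 and the highest for Vegfa, Vegfb and Angpt1, and it had the lowest endothelial and the highest mural and fibroblast marker sum of all 12 libraries. Without it, the log2 fold change in Fip200 KO changed sign for Kdr (−0.30), Tek (−0.24) and Tie1 (−0.31), and that of Flt1 was −3.92. The part of these marker sums in the results was not tested. Of 10 tested endothelial markers, 5 were called higher in Atg5 KO, against 4.31% of all genes, with the largest log2 fold changes in Cldn5 (4.12, with overlapping groups), Robo4 (1.66), Cdh5 (1.28) and Egfl7 (1.16). In Atg7 KO 1 was called higher (Robo4, 1.65), against 3.29%, and in Fip200 KO 0, against 0.347%. The lymphatic marker Lyve1 was also called higher in Atg5 KO (1.25) and Atg7 KO (1.11), the 1 called of 5 tested. Of 3 mural and fibroblast markers tested in each KO, Acta2 (smooth muscle actin) was called higher in Atg5 KO (1.5). In Atg7 KO Col1a2 (type I collagen) was called higher (1.64). Col1a2 was read at 0.0202, 0.0162 and 0.00969 RPKM in control and at 1.11, 0.756 and 1.54 in Atg7 KO. It passed the filter through the Atg7 KO libraries alone, so the filter favoured a higher call. It was not tested in the other KO groups, and Dcn was not tested in Atg7 KO. The other tested markers of this list were not called and differed the other way for the most part. Their log2 fold changes were −1.49 for Col3a1 and −2.88 for Dcn in Atg5 KO, and −3.58 for Col3a1 and 1.85 for Acta2 in Atg7 KO. Cd68, a macrophage marker and the 1 blood cell marker tested, had log2 fold changes of −2.26 in Atg5 KO cells and −1.70 in Atg7 KO cells and was called in both, against 6.94% and 6.81% of genes called lower. In Fip200 KO none of these lists had a called gene.

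**Figure D4:**
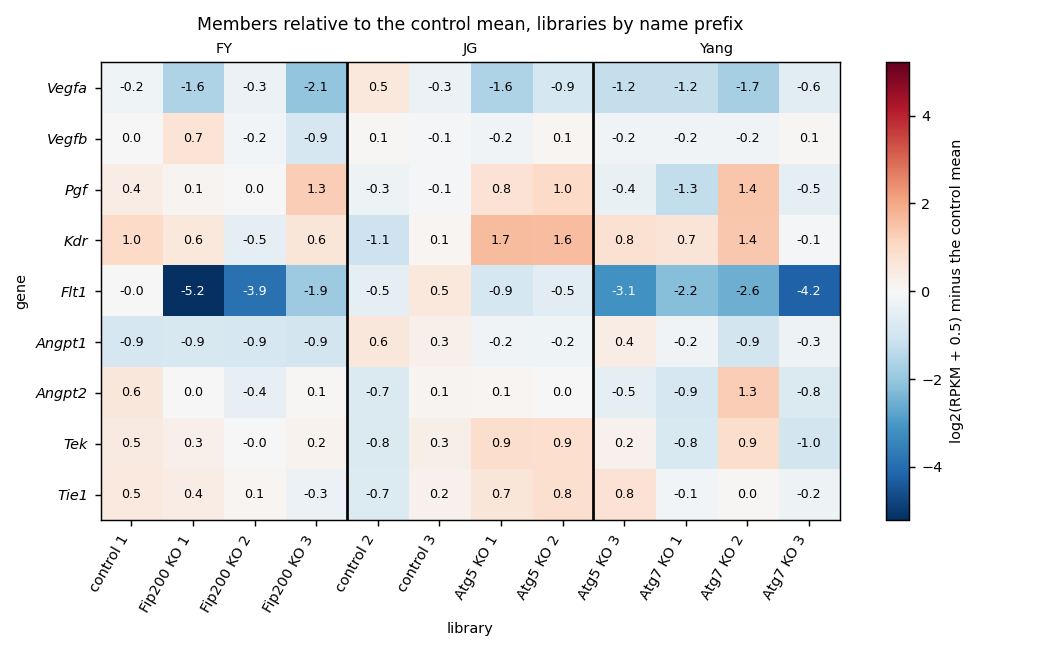
Each member in each library as log2 of RPKM plus 0.5 minus the control mean, with libraries ordered by the prefix of the library name. The Flt1 row ranges from −5.2 in Fip200 KO replicate 1 to 0.5 in control replicate 3, and control replicate 2 is the lowest control for Pgf, Kdr, Flt1, Angpt2, Tek and Tie1.

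Counted over the members, 1 of 8 tested was called lower in Fip200 KO, against 1.64% of 11802 genes called lower, and 0 higher, against 0.347%. In Atg5 KO 1 of 9 was called lower, against 6.94% of genes, and 1 higher, against 4.31%. In Atg7 KO 2 of 8 were called lower, against 6.81%, and 0 higher, against 3.29%. Without overlap, 2 members were below control in Fip200 KO (12.4% of genes) and 0 above (11.7%). In Atg5 KO 2 were below (22% of genes) and 1 above (28.4%), and in Atg7 KO 2 were below (20.4%) and 0 above (19.2%). So many genes separated in the Atg5 KO and Atg7 KO comparisons that separation alone does not mark out the members. The comparisons share the same control libraries. Atg5 KO replicates 1 and 2 were far more alike than the other replicate pairs. The standard errors and calls of Atg5 KO rest in part on that pair.

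Between the KO groups no member was called in the fit of all 12 libraries, where 0% of 12232 genes were called in Atg5 KO against Fip200 KO, 0% in Atg7 KO against Fip200 KO and 0% in Atg7 KO against Atg5 KO. At an unadjusted limma p under 0.05 there were 927, 916 and 562 genes, and voom on recovered reads called 0 in each. The Flt1 difference of Atg5 KO from Fip200 KO was 2.12 on the log2 scale (standard error 0.867, limma adjusted p = 0.627), and its 95% interval ran from 0.22 to 4.03. The Tie1 difference of Atg7 KO from Atg5 KO was −0.86 (standard error 0.283, limma adjusted p = 0.935). Neither passed after adjustment.

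The other genes of the pathway were read from lists. Of 5 other VEGF family ligands, receptors and co-receptors, all tested, Vegfc, the ligand of the lymphatic receptor Flt4, was the 1 called, with log2 fold changes of −2.40 in Atg5 KO and −2.34 in Atg7 KO, and 0 were called in Fip200 KO. The shares of all genes called lower were 1.64%, 6.94% and 6.81% in Fip200, Atg5 and Atg7 KO. Vegfc was read at 2.05, 11.0 and 7.83 RPKM in control and at 6.52, 0.0528 and 0.0242 in Fip200 KO, and at no more than 1.08 RPKM in the Atg5 KO and Atg7 KO libraries. With the KO groups in the order Fip200, Atg5 and Atg7, the medians of this list were 0.33, −0.21 and −0.45 on the log2 scale, beside 0.02, 0.06 and −0.01 over all genes tested. Flt4 itself was read at 31.7 to 101 RPKM and was not called. Of 5 other Tie pathway genes, 2 were tested, the phosphatase Ptprb and the transcription factor Foxo1, and neither was called. Their medians in that order were 0.24, 0.64 and 0.23.

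Of 24 VEGF receptor signalling genes, 22 were tested and 1 was called in each KO, the adaptor Gab1, which was lower throughout. That 1 of 22 stands beside 1.64%, 6.94% and 6.81% of all genes called lower in Fip200, Atg5 and Atg7 KO. Gab1 was read at 4.20, 4.43 and 8.51 RPKM in control and at 0.00631 to 1.27 RPKM in the 9 KO libraries. No KO library reached the control range. Its log2 fold change was −2.81 for Fip200, −2.44 for Atg5 and −2.55 for Atg7 KO (limma adjusted p = 0.0396, 0.0119 and 0.0180). In the same order, the median of the list was 0.05, 0.11 and −0.04, near that of all genes.

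Of 14 genes that VEGF is known to induce in endothelial cells, 12 were tested, and those called went both ways. None was called in Fip200 KO (0 of 12), against 1.64% of all genes called lower and 0.347% higher. In Atg5 KO 2 were lower and 2 higher, and in Atg7 KO 3 were lower with 2 higher. Over all genes the lower calls made up 6.94% and 6.81% in Atg5 KO and Atg7 KO, and the higher calls 4.31% and 3.29%. Apln, the ligand of the apelin receptor, was higher by 2.17 in Atg5 KO and 2.15 in Atg7 KO, and Dusp5, a phosphatase of ERK, by 1.08 and 1.34. The nuclear receptor Nr4a1 was lower (−1.90 in Atg5 KO, −2.35 in Atg7 KO), F3 (tissue factor) was lower in Atg5 KO (−1.18), and Nr4a2 (−1.35) and the protease Adamts1 (−1.71) were lower in Atg7 KO. In Fip200 KO the log2 fold change of Nr4a1 was −2.65 (limma adjusted p = 0.101), just over the p threshold, and Nr4a1 was not called. The medians of the 12 genes were −0.49, −0.15 and −0.19, with Fip200 KO first.

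Of 8 genes of hypoxia sensing, which act upstream of Vegfa, all were tested, with medians of −0.10, −0.15 and −0.08 in the same order. Epas1 (HIF-2α) was called lower in Fip200 KO (−1.19, limma adjusted p = 0.0867) and in Atg7 KO (−1.71, limma adjusted p = 0.0246). Hif1a was called lower in Atg5 KO (−1.10, limma adjusted p = 0.00995), and Egln1, the prolyl hydroxylase that marks both for degradation, higher in Atg7 KO (1.06, limma adjusted p = 0.0735). This is 1 of 8 lower in each KO, against 1.64%, 6.94% and 6.81% of all genes, and 1 of 8 higher in Atg7 KO, against 3.29%. Epas1 was read at 26.3, 18.9 and 26.9 RPKM in control and between 4.25 and 15.2 in the 9 KO libraries, all below control. Of all genes tested, 12.4%, 22% and 20.4% lay wholly below control in Fip200, Atg5 and Atg7 KO, each taken alone. The share below in all 9 libraries was not counted.

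**Figure D5:**
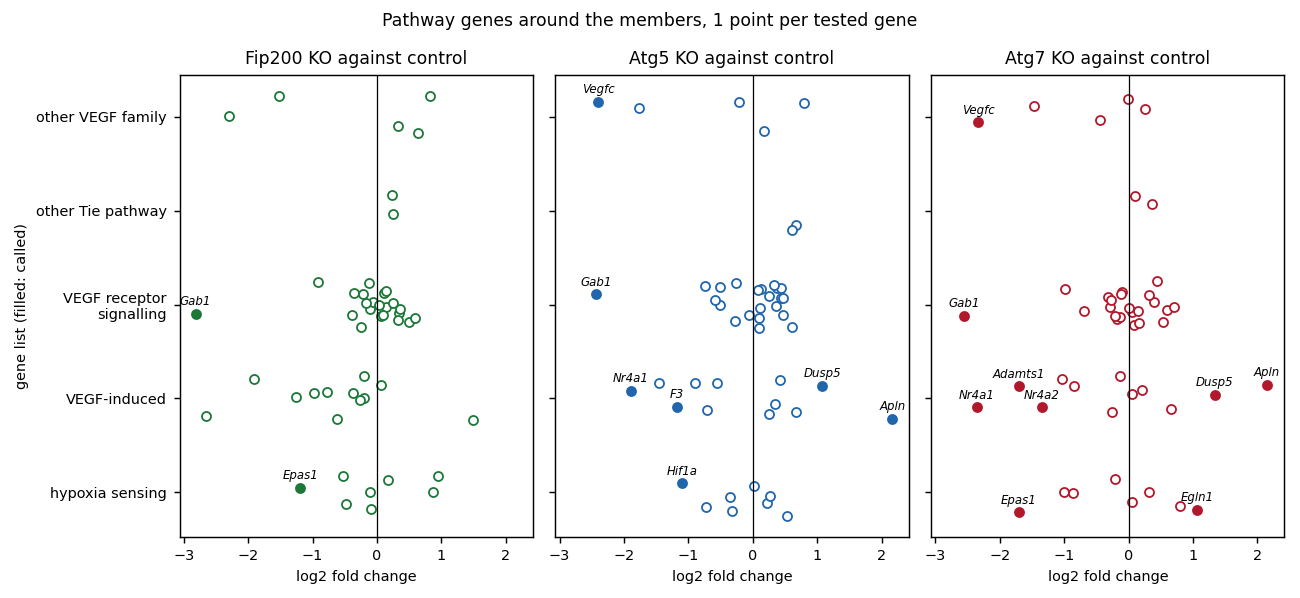
Log2 fold change of each tested gene of the 5 pathway lists, in each KO against control. Filled, named points were called. Gab1 was called lower in each KO, and the VEGF-induced genes that were called lie on both sides of 0 in Atg5 KO and Atg7 KO.

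Over the 12 libraries the members did not rise and fall as 1 unit. Pearson's r of log2 of RPKM plus 0.5 between pairs of members had a median of 0.18 over 36 pairs, from −0.68 (Vegfa and Kdr) to 0.80 (Angpt2 and Tek), with 15 pairs below 0. The points share library totals and groups, so these values are a description. The genes whose pattern was most like Flt1 were Igsf3 (r = 0.94), Zdhhc13 (0.92) and Camk2n1 (0.91), over 12 libraries. For Vegfa they were Rtn4rl2 (0.93), Ercc5 (0.92) and Arntl (0.90), and for Kdr Gimap8 (0.94), Sox18 (0.94) and Ushbp1 (0.91). For Vegfb they were Tmem256 (0.94), Colca2 (0.93) and Nagk (0.93), and for Pgf Plekhg1 (0.92), Cog8 (0.90) and Crhbp (0.90). For Tek they were Lmo2 (0.91), Tspan18 (0.90) and Pcdh1 (0.90), and for Tie1 Fam171a1 (0.93), Rasgrp3 (0.91) and Tbcc (0.90). For Angpt2 they were Prdm1 (0.93), Endod1 (0.91) and Lims1 (0.91), and for Angpt1 Relb (0.92), Dvl2 (0.91) and Cxcl5 (0.89).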

How the data were processed

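RNA of 12 libraries in 4 groups was sequenced from directional libraries. The authors trimmed adapters, aligned reads with TopHat2 and tested genes with edgeR. The genome build and annotation are not given in the sources used here. The authors deposited RPKM values per library and group means, a signal on the scale of reads, in 3 tables that share the same control libraries. The tables also hold fold changes and p-values of the authors' own tests, which were not used.

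Whole reads were recovered from the RPKM values for 14831 of 14831 genes read (tolerance 0.05). The row without a symbol was left out. Genes with RPKM of at least 0.5 in at least 3 compared libraries were tested by limma 3.58.1 (R 4.3.3, trend) on log2 of RPKM plus 0.5, with 6 libraries for a KO against control and 12 between KO groups. To be called, a gene needed a Benjamini-Hochberg adjusted p no higher than 0.1, with a log2 fold change of 1 or more in either direction. On simulated data, 70.5% of 200 genes changed by a log2 of 2 were called for Fip200 KO, 92% for Atg5 KO and 87% for Atg7 KO, 0 in the wrong direction. No library was a duplicate, but Atg5 KO replicates 1 and 2 were far more alike (chi-square per degree of freedom 8.66) than the other replicate pairs (51.4 to 316).

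The members, the lists and the tests were chosen with earlier results of these data known. The named genes are the 9 members, the called genes of each list up to the 4 largest changes, and the 3 genes with the highest Pearson's r per member among genes with a mean RPKM of at least 1. Dusp5 in Atg7 KO, Nr4a1 in Fip200 KO, Flt4, Ptprb, Foxo1, Prox1, Sox17, Col3a1, Dcn and Rgs5 were named after their values were seen. Alternatives were other pseudocounts, filters, scaling, fits and left-out libraries, and, chosen after seeing the data, voom on the recovered reads. Same-numbered replicates did not deviate together in every pair (correlations from −0.50 to 0.25). With so few libraries this cannot exclude a pairing, and the main fits took the samples as unpaired. Other steps used Python 3.11.15 with pandas 2.3.3 and numpy 2.4.6, and figures were drawn with matplotlib 3.10.9.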

Additional observations from a re-analysis of the deposited data

How the results depend on the processing

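Of 25 member fold changes, 13 kept their sign under every alternative run and 12 did not, and of 371 values under alternatives 314 kept sign and call, 25 lost the call, 2 gained it (Flt1 and Tie1 in Atg5 KO) and 30 changed sign. Members called in Fip200 KO went from 1 to 0 with a pseudocount of 0.1, without a filter, with a stricter filter, with the prefix term, with voom and at an adjusted p of 0.05 without a fold threshold, and were 0 to 1 without a replicate. In Atg5 KO 2 became 1 without a filter, in the fit of 12 libraries, with the prefix term and at an adjusted p of 0.05, and 0 to 3 without a replicate. In Atg7 KO 2 became 0 with the prefix term and 1 at an adjusted p of 0.05 and with the replicate block, and 1 to 2 without a replicate. With the replicate block, Vegfa in Atg7 KO had an adjusted p of 0.131 by limma and the other member calls stood. The main fits did not treat the replicate numbers as pairs. Atg5 KO against Fip200 KO had 0 to 1 members called without a replicate, Flt1 without Fip200 KO replicate 3, when 300 genes were called. Members without overlap were 2 to 4 in Fip200 KO, 3 to 6 in Atg5 KO and 2 to 5 in Atg7 KO without a replicate. With the prefix term the log2 fold change became −0.76 for Kdr, −0.33 for Tek and −0.47 for Tie1 in Fip200 KO, 0.37 for Angpt2 in Atg5 KO, and 0.048 for Vegfb, 1.33 for Pgf, 0.75 for Angpt2, 0.63 for Tek and 0.13 for Tie1 in Atg7 KO. Angpt1 in Atg5 KO became 0.21 with a pseudocount of 0.1 and 0.54 with voom. Without a replicate the range was −0.52 to 0.29 for Vegfb, −0.30 to 0.73 for Kdr, −0.48 to 0.19 for Angpt2, −0.24 to 0.37 for Tek and −0.31 to 0.31 for Tie1 in Fip200 KO, −0.45 to 0.093 for Angpt1 and −0.49 to 0.18 for Angpt2 in Atg5 KO, and −0.89 to 0.47 for Pgf, −0.83 to 0.27 for Angpt2, −0.88 to 0.056 for Tek and −0.47 to 0.15 for Tie1 in Atg7 KO. The cause of these changes was not tested. Over all genes, calls in Fip200 KO went from 234 to 608 in the fit of 12 libraries, 93 with the replicate block, 47 with the prefix term, and 0 to 598 without a replicate. Calls in Atg5 KO went from 1331 to 663 and in Atg7 KO from 1191 to 38 with the prefix term.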
